A study of Mus musculus with 48 samples.

Results

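The proteasome subunit genes were taken as every probe set whose platform gene symbol was Psma, Psmb, Psmc, Psmd, Psme, Psmf or Psmg followed only by a number. This rule gave 100 of the 45037 probe sets and 47 of the 18193 genes with a symbol of their own, and each gene was followed through its brightest probe set. The samples were NIH3T3 cells, a mouse fibroblast line with a working circadian clock, grown to confluence and treated with forskolin, an activator of adenylyl cyclase that brings the clocks of a culture into step. Total RNA was collected once per hour from hour 20 to hour 67 after forskolin, with 1 array per hour and 48 arrays in all. All cultures had received forskolin, no untreated culture was analysed here, and no hour had a second array, so every comparison below is across time within 1 group. Values are log2 intensities, and each ± is the standard error (SE) of a fit over the 48 arrays unless SD is written.

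The proteasome is the protease that destroys proteins tagged with ubiquitin. Its 20S core is a barrel of outer alpha rings and inner beta rings, and the beta subunits encoded by Psmb5, Psmb6 and Psmb7 carry the cutting sites. The 19S cap sits on the core, where a base of ATPases unfolds the substrate and a lid removes its ubiquitin. Immunoproteasome subunits (Psmb8, Psmb9, Psmb10) replace the cutting subunits in cells exposed to interferon and change the peptides made for antigen presentation. Other activators (Psme genes) can take the place of the cap, and dedicated chaperones build the core (Psmg genes) and the base (Psmd5, Psmd9, Psmd10).

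The members comprised 7 alpha ring genes, 7 constitutive beta ring genes, 3 immunoproteasome genes, 2 tissue-restricted genes (Psma8 of the testis and Psmb11 of the thymus), 6 base ATPases, 3 other base subunits, 8 lid subunits, 3 base chaperones, 4 core chaperones and 4 activators or inhibitors (Psme1, Psme3, Psme4 and the inhibitor gene Psmf1). The probe set of Psme2 carries more than 1 gene symbol on this platform and was not a member, and Psmc3ip and Psme3ip1 did not meet the rule. In 44 of the 47 genes the mean lay above 6.67, the median of all probe set means. The exceptions were Psmb8 (mean 5.71), Psma8 (5.51) and Psmb11 (5.40), which lay at the common floor of the array values. Markers of the cell line bore out its label, since 8 fibroblast markers had means between 16.4 and 19.01. By contrast, 10 markers of leukocytes, epithelium, endothelium and thymic epithelium had means between 5.34 and 5.72, at the same floor as Psma8 and Psmb11, although the macrophage gene Csf1r reached 8.81 at hour 24. Of the 2 germ cell markers listed beside Psma8, Ddx4 lay at the floor (5.61) and Sycp3 did not (11.7).

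The arrays were not of equal quality. In 10 of them (hours 20, 22, 24, 36, 38, 40, 43, 45, 46 and 67) the β-actin difference, the log2 intensity of its 3′ probe set minus that of its 5′ probe set, was above 1.4, against a median of 1.13 over all arrays and a highest value of 2.42 at hour 36. A larger difference is a known sign of shorter RNA or cDNA. Of these arrays 3 fell in hours 44 to 67 and 7 in hours 20 to 43. BioB spike-in values were 0.85 higher in hours 52 to 55 than in the other arrays.

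Promoter sequence was drawn from RefSeq (GRCm38.p6) as the 250 bases before and 50 after each gene's start, and 39 of the 47 members matched. Windows are shown for 6 of the members on which the results below turn, and each held at least 1 of the motifs named below. The window of Psmg1, whose trend had the smallest adjusted p of all members, held none of them and is not shown. Psmb10, Psmd10 and Psme4 had higher values later in the course, Psmd5 had lower values, and Psmb5 and Psmb6 were catalytic subunits that varied together from array to array. Capitals mark matches, on either strand, to TGACNNNGC (the core of the antioxidant response element, bound by the Nrf1 and Nrf2 factors), the letters CCAAT, the GC box GGGCGG, the E-box CACGTG bound by clock factors, the cyclic AMP response element TGACGTCA, or the core of the interferon-stimulated response element (ISRE), which is GAAA, a gap of NN and again GAAA. The antioxidant and cyclic AMP elements share the letters TGAC.
Psmb10, chr8:105938343-105938642, strand minus: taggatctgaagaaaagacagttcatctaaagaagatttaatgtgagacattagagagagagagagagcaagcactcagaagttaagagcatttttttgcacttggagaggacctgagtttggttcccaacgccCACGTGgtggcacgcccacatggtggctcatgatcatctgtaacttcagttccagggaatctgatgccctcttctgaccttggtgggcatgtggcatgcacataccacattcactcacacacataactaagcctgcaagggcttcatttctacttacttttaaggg
Psmd10, chrX:140956662-140956961, strand minus: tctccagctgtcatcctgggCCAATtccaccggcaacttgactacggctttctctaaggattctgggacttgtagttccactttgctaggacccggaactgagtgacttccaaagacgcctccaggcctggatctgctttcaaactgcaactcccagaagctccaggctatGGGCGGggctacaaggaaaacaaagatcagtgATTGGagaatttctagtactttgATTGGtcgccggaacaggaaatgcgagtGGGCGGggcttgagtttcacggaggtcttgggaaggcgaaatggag
Psme4, chr11:30771525-30771824, strand plus: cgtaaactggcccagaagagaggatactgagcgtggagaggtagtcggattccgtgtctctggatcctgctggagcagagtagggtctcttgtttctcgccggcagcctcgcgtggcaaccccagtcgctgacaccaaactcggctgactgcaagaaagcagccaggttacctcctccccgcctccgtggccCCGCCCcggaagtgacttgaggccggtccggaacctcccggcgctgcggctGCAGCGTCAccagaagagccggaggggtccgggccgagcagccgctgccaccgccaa
Psmd5, chr2:34870913-34871212, strand minus: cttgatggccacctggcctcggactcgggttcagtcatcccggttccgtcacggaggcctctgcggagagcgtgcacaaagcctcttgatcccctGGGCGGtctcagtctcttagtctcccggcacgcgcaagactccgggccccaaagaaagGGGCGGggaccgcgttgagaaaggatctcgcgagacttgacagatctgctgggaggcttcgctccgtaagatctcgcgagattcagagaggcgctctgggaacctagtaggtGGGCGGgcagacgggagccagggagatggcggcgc
Psmb5, chr14:54617946-54618245, strand minus: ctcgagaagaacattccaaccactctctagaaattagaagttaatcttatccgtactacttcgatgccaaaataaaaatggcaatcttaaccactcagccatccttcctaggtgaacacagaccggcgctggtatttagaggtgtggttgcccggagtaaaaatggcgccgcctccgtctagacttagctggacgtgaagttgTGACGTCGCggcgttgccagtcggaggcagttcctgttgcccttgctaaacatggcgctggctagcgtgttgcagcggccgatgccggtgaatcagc
Psmb6, chr11:70525107-70525406, strand plus: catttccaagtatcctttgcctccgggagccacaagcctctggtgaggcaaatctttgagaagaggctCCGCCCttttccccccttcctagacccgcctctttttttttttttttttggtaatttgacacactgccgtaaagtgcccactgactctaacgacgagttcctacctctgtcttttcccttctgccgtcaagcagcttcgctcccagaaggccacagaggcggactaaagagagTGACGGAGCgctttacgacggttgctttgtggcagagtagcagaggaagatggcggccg

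The TGACNNNGC letters occurred in 6 of the 39 matched members (15.4%), among them both printed catalytic genes, against 13.99% of the 27025 genes with a window. Relative to the start site the match began at -47 in Psmb5, at -9 in Psmb6 and at -7 in Psme4. The GC box occurred in 22 of 39 members (56.4%) and in 38.2% of all genes, and CCAAT in 14 members (35.9%) and 41.1% of all genes. CACGTG was found in 4 members (10.3%, all genes 8.09%), the ISRE core in 5 members (12.8%, all genes 3.99%) and TGACGTCA in 0 members (all genes 2.03%). None of the 3 immunoproteasome windows held the ISRE core, and the single match in Psmb10 was CACGTG, at -116. A match is a description of these letters and not evidence of a bound site.

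The first question was whether transcripts of the proteasome cycle with the clock. No member was called at 24 h in a limma fit of a 24 h cosine and a linear hour term, against 132 of 45037 probe sets (0.293%). The smallest adjusted p among members was 0.24, for the alpha ring gene Psma2. Fisher's G-test called 0 members at 24 h as well, against 1.42% of all probe sets. An unadjusted p under 0.05 was the stricter cut in that test, with 536 probe sets against 639. Its 0 members therefore follow from the first count. In the limma fit 11 members (23.4%) had an unadjusted p under 0.05, against 9.45% of all probe sets and 17.2% of those above the median level. They were Psma2, Psma6 and Psma7 of the alpha ring, Psmb1 and Psmb6 of the beta ring, Psmd4 of the base, Psmd7, Psmd8 and Psmd12 of the lid, the chaperone gene Psmd10 and the activator gene Psme1.

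The fitted 24 h curves of these 11 members fell close together. Their amplitudes (log2, mean to peak) ran from 0.04 to 0.10, which corresponds to peak-to-trough ratios of 1.06 to 1.15. Their fitted peaks lay between hours 30.6 and 34.2. Of all probe sets with an unadjusted p under 0.05 in this fit, 40.5% had peaks from hour 28 up to hour 35. Psmd7, a lid subunit, reached 0.10 ± 0.04 with a peak at hour 31.3 ± 1.61, and Psma7 had the better determined value of 0.06 ± 0.02 at hour 30.8 ± 1.19. The highest amplitude of all members belonged to the chymotrypsin-like subunit gene Psmb5, at 0.11 ± 0.05 (unadjusted p = 0.067, adjusted p = 0.58), and an approximate 95% upper limit for it was 0.21. The 132 called probe sets had a median amplitude of 0.16, and those of them with a mean over 16, where 30 of the 47 members lay, had a median of 0.07 and a lowest value of 0.016. Over all 47 members, 32 (68.1%) had fitted peaks from hour 28 up to hour 35, compared with 30.9% of all probe sets, 35.5% of those above the median and 46.1% of those with a mean over 16.

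The 11 members shared a relation to array quality. In a fit that added the β-actin difference, described below, all 11 were called lower as that difference grew. So were 23 of all 47 members (48.9%) and 16.6% of all probe sets. The share was 31.5% of probe sets above the median level and 40.1% of those with a mean over 16. With the difference as a covariate 5 of the 47 members had an unadjusted p under 0.05 for the 24 h cosine (10.6%, all probe sets 8.21%), namely Psma2, Psma3, Psma6, Psma7 and Psmd12. With the 10 arrays over 1.4 left out there were also 5 (10.6%, all probe sets 8.56%), namely Psma1, Psma3, Psmb7, Psmd7 and Psmd12, so that Psmd12 alone was in all 3 counts. With a term for hours 52 to 55 there were 21 (44.7%, all probe sets 37.7%). The correlation between hours 44 to 67 and hours 20 to 43 of the same gene, a description over 24 pairs of arrays, had a median of -0.07 over members and 0.0043 over probe sets above the median, and the highest member was Psme4 at 0.49.

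**Figure D1:**
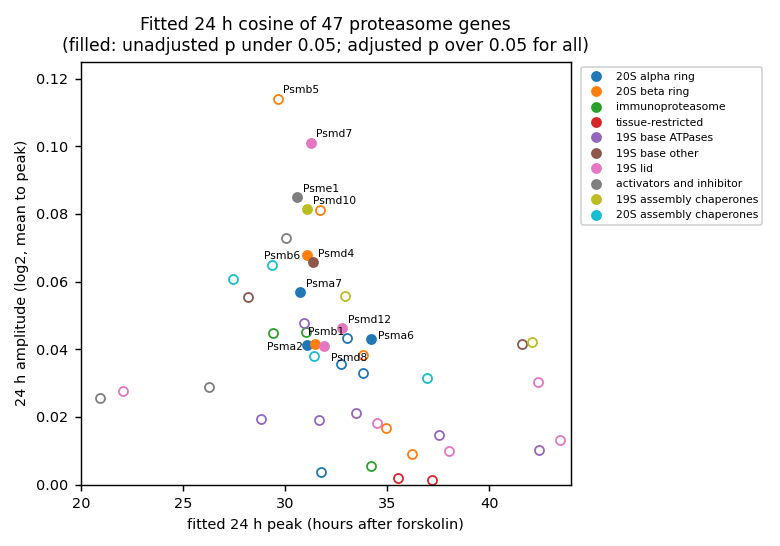
Amplitude of the 24 h cosine (log2 intensity, from mean to crest) by the hour of its crest for the 47 proteasome genes, 1 point per gene, coloured by class and filled where the unadjusted p was under 0.05. The 11 filled points lie between hours 30.6 and 34.2 at amplitudes of 0.04 to 0.10, and no gene passed the adjusted threshold.

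Shorter periods were tested in a fit with 24, 12 and 8 h cosines together. At 12 h 0 members and 0% of all probe sets were called by limma, and 3 members (6.38%) had an unadjusted p under 0.05 against 1.43% of all probe sets. These were the activator gene Psme4, with a 12 h amplitude of 0.05 ± 0.01, and the base ATPase genes Psmc3 (0.04 ± 0.01) and Psmc6 (0.03 ± 0.01). At 8 h 0 members and 0% of all probe sets were called, with 8 members (17.02%) and 43.7% of all probe sets under an unadjusted p of 0.05. That share was 16.99% for probe sets above the median and 70.5% for those below it. Of the 8 members, Psmb8, Psma8 and Psmb11 lay at the floor, with 8 h amplitudes of 0.019, 0.0056 and 0.0030, and the lid gene Psmd6 had the largest, 0.06 ± 0.02.

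The second question was which members drifted over the 47 h of sampling. By limma's test of the linear hour term, 5 members had higher values later (10.6%) and 10 had lower values (21.3%), against 14.2% and 16.2% of all probe sets. Among the 44 members above the median level the counts were 5 and 9, where the shares of all probe sets above the median were 26.4% higher and 26.4% lower. These shares were not tested against each other. The median slope was 0.0021 per 24 h over members and -0.0034 over all probe sets, and 38 of the 47 members moved by less than 0.10 per 24 h in either direction. Since RNA came from whole cultures, fewer cells of a kind and less RNA per cell cannot be told apart. Hourly arrays of neighbouring cultures were treated as independent, and the p-values measure only the spread around the fitted curve.

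The immunoproteasome subunit gene Psmb10, which encodes the inducible counterpart of Psmb7, had the steepest rise of all members. Its values ran from 14.31 through a median of 14.64 to 14.81 in hours 44 to 67, against 14.05, 14.35 and 14.75 in hours 20 to 43. The ranges overlapped, and the low values lay in the first 12 h, where the mean was 14.23 over hours 20 to 31, followed by 14.47, 14.63 and 14.60 in the blocks of 12 h that followed. The slope was 0.27 ± 0.04 per 24 h (adjusted p = 2.85e-07), or 20.5% per 24 h, and it stayed between 0.24 and 0.30 with the β-actin covariate, without the 10 arrays or with a term for hours 52 to 55. Psmb9, the inducible counterpart of Psmb6, did not pass the test at 0.09 ± 0.06 per 24 h (adjusted p = 0.185). Psmb8, the counterpart of Psmb5, was among the 10 called lower, but at the floor of the array, with means of 5.70 in hours 44 to 67 and 5.72 in hours 20 to 43, and it lost the call in 30 of the other settings and kept it in 27. Within arrays Psmb10 gained on its constitutive counterpart Psmb7 by 0.24 ± 0.07 per 24 h and on Psmb9 by 0.18 ± 0.05, whereas Psmb9 and its counterpart Psmb6 differed by 0.02 ± 0.06.

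The genes around antigen presentation gave 2 calls among the 7 of 8 listed that were measured, where 14.2% of all probe sets were called higher. All 7 lay above the median level, where that share was 26.4%. Both called genes had means over 16, where it was 30.4%. Tapbp, which encodes the tapasin that loads peptides onto class I molecules, had a slope of 0.16 ± 0.03 per 24 h (adjusted p = 3.84e-06), and B2m, the light chain of those molecules, had 0.14 ± 0.01 (adjusted p = 1.75e-12). The peptide transporter genes Tap1 (-0.12 ± 0.05, adjusted p = 0.06) and Tap2 (-0.01 ± 0.10), and the regulators Irf1 (0.10 ± 0.07) and Nlrc5 (-0.02 ± 0.07), did not pass. Over the 7 genes the median slope was 0.09 per 24 h, against -0.0034 for all probe sets. With the β-actin difference 2 of the 7 were called lower and 5 higher (all probe sets 16.6% lower and 20.0% higher). The 2 called lower were Tapbp (-0.24 ± 0.03) and B2m (-0.06 ± 0.02), the same genes that were higher later. The mean β-actin difference was 1.30 in hours 20 to 43 and 1.20 in hours 44 to 67. How far this difference set the slopes of Tapbp and B2m was not tested.

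Among the activators, Psme4, which encodes the large PA200 activator, had higher values later. It ran from 16.43 through 16.54 to 16.70 in hours 44 to 67, against 16.27, 16.44 and 16.60 in hours 20 to 43. The slope was 0.10 ± 0.02 per 24 h (adjusted p = 6.20e-06), and 4 of its 5 other probe sets above the median level were called in the same direction, at 0.13 to 0.34 per 24 h. Psme1, a subunit of the interferon-inducible PA28 ring, had 0.08 ± 0.04 (adjusted p = 0.11), and Psme3, the nuclear PA28 gamma, had 0.00 ± 0.05 (adjusted p = 0.94). The second probe set of Psme3 had a called slope of -0.20 ± 0.03. The brightest probe set was also called lower with the β-actin covariate (-0.09 ± 0.02, adjusted p = 1.51e-04). Without the arrays of β-actin difference over 1.4 it was called lower too (-0.11 ± 0.03, adjusted p = 6.65e-04), as was the mean of all probe sets. It did not pass with median centring (0.01 ± 0.05) or a term for hours 52 to 55 (0.04 ± 0.05). The main fit gives no direction for Psme3, but the settings that called it called it lower. The inhibitor gene Psmf1 had -0.02 ± 0.04 (adjusted p = 0.75). Within arrays the slope of Psme4 minus that of Psme1 was 0.03 ± 0.04 per 24 h, or 0.09 ± 0.03 with the β-actin covariate. Against the brightest probe set of Psme3 it was 0.10 ± 0.06, or 0.19 ± 0.03 with the covariate.

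The assembly chaperones held the steepest slopes in both directions outside Psmb10. Psmd10, which encodes gankyrin, a base chaperone bound to Psmc4, ran from 13.60 through 13.94 to 14.09 in hours 44 to 67, against 13.07, 13.72 and 14.05 in hours 20 to 43. Its slope was 0.23 ± 0.04 per 24 h (adjusted p = 5.24e-06), and 0.18 ± 0.03 with the β-actin covariate, its lowest arrays being hours 20 and 36 with the largest β-actin differences. Psmd5, the base chaperone bound to Psmc1 and Psmc2, went the other way. It ran from 14.18 through 14.49 to 15.03 in hours 44 to 67, against 14.52, 14.64 and 15.14 in hours 20 to 43, with a slope of -0.22 ± 0.05 per 24 h (adjusted p = 8.58e-05). That slope was smaller, -0.13 ± 0.03, without the 10 arrays over 1.4, and still called. Psmd10 gained 0.46 ± 0.07 per 24 h on Psmd5 within arrays, and 0.35 ± 0.04 with the covariate. The third base chaperone gene, Psmd9, had 0.07 ± 0.04 (adjusted p = 0.12).

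Psmg1, which encodes the first chaperone of alpha ring assembly, had the smallest adjusted p for the trend of all members. It ran from 13.64 through 13.89 to 14.08 in hours 44 to 67, against 13.95, 14.09 and 14.33 in hours 20 to 43, and its 12 h means were 14.14, 14.08, 13.93 and 13.85 in order of time. The slope was -0.22 ± 0.02 per 24 h (adjusted p = 6.96e-12), a loss of 14.4% per 24 h, and -0.21 ± 0.02 with the covariate. Its partner gene Psmg2 had 0.06 ± 0.03 per 24 h (adjusted p = 0.057), Psmg3 had 0.09 ± 0.04 (adjusted p = 0.092) and Psmg4 had 0.02 ± 0.08 (adjusted p = 0.82).

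**Figure D2:**
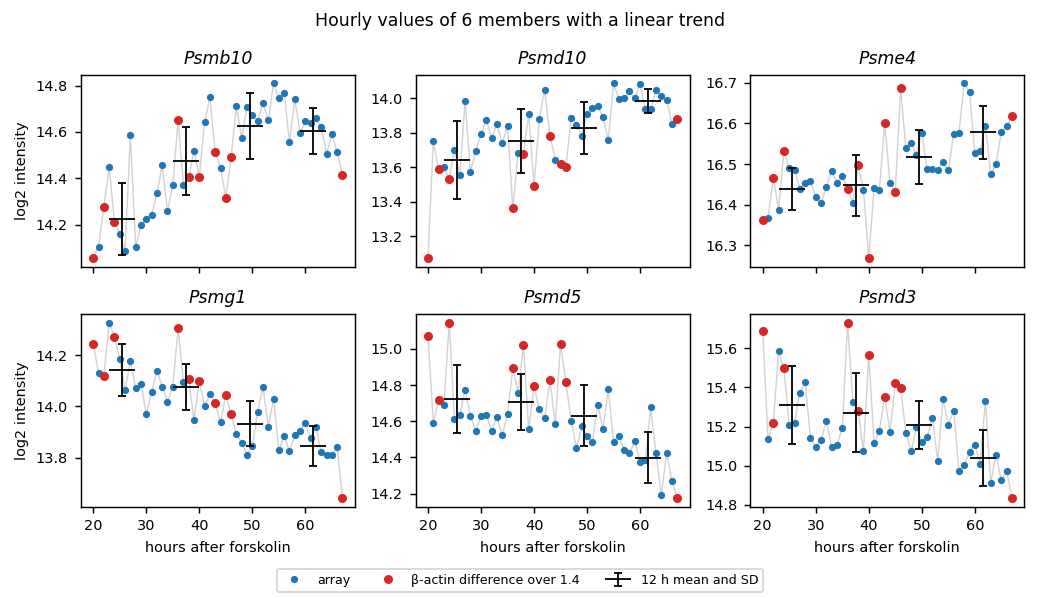
Log2 intensity by hour after forskolin for 6 members with a linear trend, 1 point per array, red where the β-actin difference exceeded 1.4, with the mean and SD of each block of 12 arrays in black. Psmb10, Psmd10 and Psme4 had higher values late in the course, with slopes of 0.27, 0.23 and 0.10 per 24 h, and Psmg1, Psmd5 and Psmd3 had lower values, with slopes of -0.22, -0.22 and -0.19.

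In the cap, the lid held most of the calls. Psmd3, a scaffold subunit of the lid, ran from 14.84 through 15.11 to 15.42 in hours 44 to 67, against 15.07, 15.22 and 15.73 in hours 20 to 43, with a slope of -0.19 ± 0.05 per 24 h (adjusted p = 0.001), which shrank to -0.10 ± 0.04 without the 10 arrays over 1.4. Psmd11 had -0.11 ± 0.02 (adjusted p = 4.59e-06), Psmd13 -0.10 ± 0.04 (adjusted p = 0.026) and Psmd14, the gene of the deubiquitinase of the lid, -0.06 ± 0.02 (adjusted p = 0.0017). None of the 4 other probe sets of Psmd11 passed, 1 of them had the opposite sign, and the mean of all its probe sets did not pass either (-0.02, adjusted p = 0.43). The slope of Psmd14 was -0.04 ± 0.01 without the 10 arrays (adjusted p = 0.041). Psmd13 lost its call without the 10 arrays (-0.05 ± 0.03, adjusted p = 0.14). Psmd8 went up, by 0.08 ± 0.02 per 24 h (adjusted p = 6.92e-04), or 0.05 ± 0.01 with the covariate. Psmd6, Psmd7 and Psmd12 did not pass, at -0.02, 0.04 and 0.02 per 24 h.

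In the base and the core most brightest probe sets had small slopes. Of 6 base ATPases, Psmc2 fell by 0.06 ± 0.02 per 24 h (adjusted p = 0.02), a call that was lost when hours 52 to 55 had their own term (-0.03 ± 0.02, adjusted p = 0.21), and its second probe set was called in the same direction. The other 5 ATPases had slopes between -0.05 and 0.03, although a second probe set of Psmc6 was called lower at -0.19 ± 0.05 (adjusted p = 0.0018). The base subunits Psmd1, Psmd2 and Psmd4, of which Psmd4 is a ubiquitin receptor, had -0.02, 0.00 and 0.07, with the second probe set of Psmd4 called higher at 0.16 ± 0.06. Psma1 fell by 0.08 ± 0.02 per 24 h (adjusted p = 0.0015), and its 3 other probe sets were all called lower as well. Psma3 fell by 0.03 ± 0.01 (adjusted p = 0.046), which became 0.00 ± 0.01 without the 10 arrays. The other 5 alpha ring genes lay within 0.04 of 0. In the beta ring Psmb4 rose by 0.04 ± 0.01 (adjusted p = 0.028), a call just inside the threshold that was lost with the covariate (adjusted p = 0.056), and its second probe set had the same slope of 0.04 ± 0.01 and was called. A second probe set of Psmb1 was called lower at -0.11 ± 0.03 (adjusted p = 0.0062), whereas the brightest had 0.00 ± 0.02.

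The 3 constitutive catalytic genes did not pass the trend test. Psmb5 had a slope of 0.15 ± 0.06 per 24 h (adjusted p = 0.054), Psmb6, the caspase-like subunit, 0.07 ± 0.03 (adjusted p = 0.07), and Psmb7, the trypsin-like subunit, 0.03 ± 0.04 (adjusted p = 0.56). Psmb5 ran from 15.96 through 16.85 to 16.95 in hours 44 to 67, against 16.02, 16.74 and 16.97 in hours 20 to 43. Psmb6 ran from 17.04 through 17.57 to 17.69, against 17.10, 17.51 and 17.59, and Psmb7 from 16.94 through 17.32 to 17.48, against 16.75, 17.35 and 17.57, over the same windows. The medians were higher in the later window for Psmb5 and Psmb6 and lower for Psmb7. The long lower tail of Psmb5 held several arrays, among them hours 20, 24, 36, 40 and 45. Leaving out the array of hour 67 gave 14 members called higher, against 5 with all arrays, with Psmb5, Psmb6 and Psmb9 among those added. Without that array 15.2% of all probe sets were called higher and 37.5% lower, against 14.2% and 16.2% with all arrays. Leaving out hour 21 or hour 45 gave 10 members, with 14.8% of all probe sets called higher in each case. With arrays centred on their medians, 6 members were called higher and 7 lower, so that the higher share of the calls was 46.2% and not 33.3%, and 14.4% of all probe sets were called higher and 13.2% lower.

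**Figure D3:**
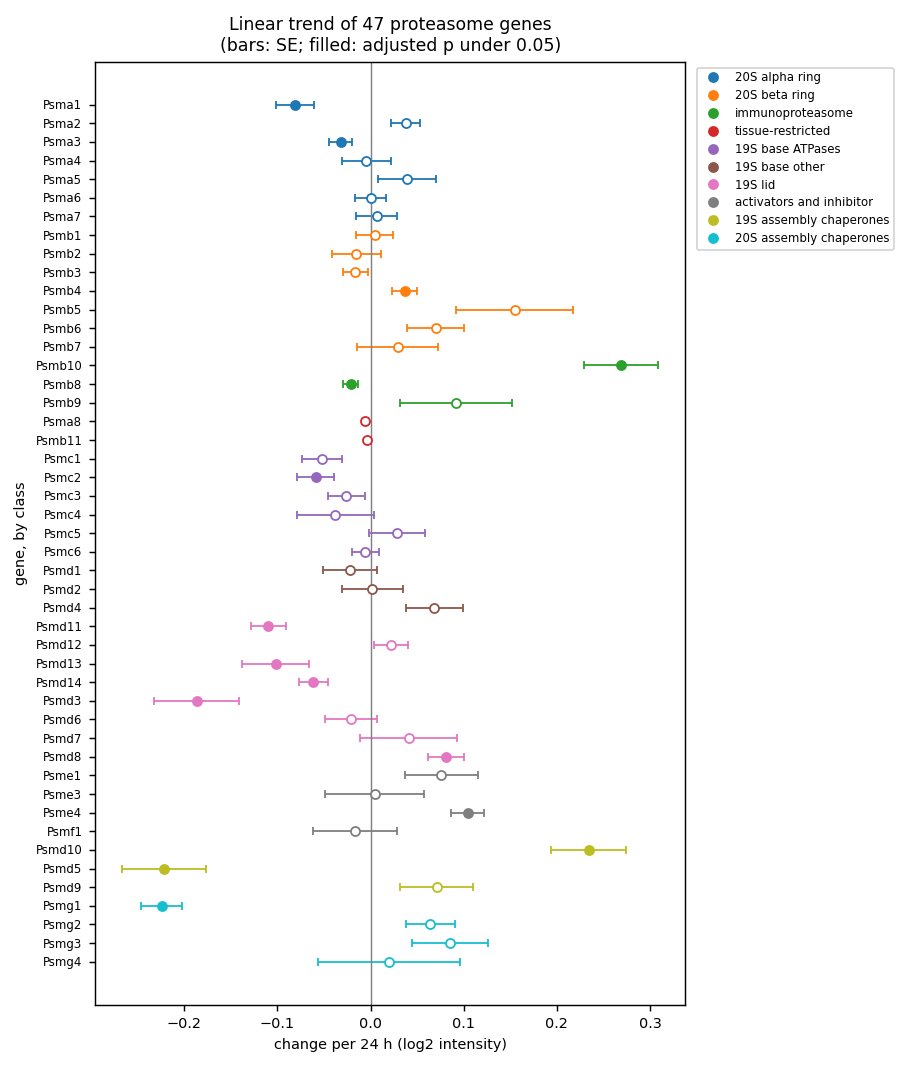
Change per 24 h (log2 intensity) for each of the 47 proteasome genes, grouped by class, with its SE as a bar and a filled point where the adjusted p was under 0.05. Points to the right of 0 were higher later. The 5 filled points on the right are led by Psmb10 and Psmd10 and the 10 on the left by Psmg1, Psmd5 and Psmd3, and most core and base genes lie near 0.

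The companions of the proteasome gave calls in 1 direction. Of 27 listed genes for transcription, assembly, ubiquitin receptors, deubiquitinases and unfoldases, 18 were measured, 5 were lower later and 0 were higher (higher in all probe sets 14.2%, lower 16.2%), with a median slope of -0.05 per 24 h. All 18 lay above the median level, where 26.4% of probe sets were called higher and 26.4% lower. The difference from these shares was not tested. Usp14, the deubiquitinase of the cap, had -0.26 ± 0.04 (adjusted p = 3.45e-08), and Rad23b, a shuttle receptor for ubiquitin chains, had -0.21 ± 0.03 (adjusted p = 3.87e-08). Vcp, the p97 unfoldase, had -0.13 ± 0.04, Txnl1 -0.10 ± 0.03 and Nfe2l2, the gene of Nrf2, -0.09 ± 0.03 (adjusted p = 0.031). Nfe2l1, the gene of the Nrf1 factor that drives proteasome genes, had -0.04 ± 0.03 (adjusted p = 0.19), and Pomp, the core maturation factor, had 0.02 ± 0.02 (adjusted p = 0.50). With the β-actin difference 4 of the 18 were called lower and 10 higher (all probe sets 16.6% and 20.0%). Rad23b, Vcp, Txnl1 and Nfe2l2, all lower later, were among those 10.

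The widest excursions of the catalytic genes lay in several separate arrays. Psmb5 was at 15.96 at hour 45, 16.02 at hour 20, 16.11 at hour 36, 16.25 at hour 40 and 16.32 at hour 24, against a median of 16.82. All of these arrays were among the 10 with a β-actin difference over 1.4. Over these 10 arrays Psmb5 averaged 16.36 ± 0.31, against 16.81 ± 0.12 in the other 38 (SD). Psmb6 averaged 17.31 ± 0.14 in the 10 arrays and 17.56 ± 0.05 in the others, and Psmb7 17.08 ± 0.20 and 17.35 ± 0.10. The arrays of hours 22 and 67, also among the 10, were different. At hour 22 Psmb5 stood at 16.93 and Psmb7 at 17.33. At hour 67 Psmb5 stood at 16.74 and Psmb7 at 17.40, while 9 members had their lowest value in that array. Across the 48 arrays the correlation, given as a description of arrays that share these quality differences, was 0.89 between Psmb5 and Psmb6, 0.68 between Psmb5 and Psmb7 and 0.69 between Psmb6 and Psmb7.

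The relation to the β-actin difference was measured for all probe sets in a fit added after the values had been seen. The coefficient is the change in log2 intensity per log2 unit of that difference, with the hour term and the 24 h cosine in the model. Of the 47 members 23 were called lower (48.9%) and 9 higher (19.1%), against 16.6% and 20.0% of all probe sets. Of the 30 members with a mean over 16, 60.0% were called lower, against 40.1% of the 3195 probe sets of that brightness. In the core 10 of 14 genes were called lower and 1 higher, in the cap 8 of 17 were lower and 5 higher, and among the activators and their inhibitor 2 of 4 were lower and 1 higher. None of the 3 immunoproteasome genes was called, with -0.01 ± 0.07 for Psmb10 and -0.09 ± 0.11 for Psmb9.

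Psmb5 had the most negative coefficient, -0.63 ± 0.06 (adjusted p = 7.16e-13), followed by Psme3 (-0.58 ± 0.03), Psmd7 (-0.50 ± 0.05), Psmb7 (-0.39 ± 0.05), Psme1 (-0.38 ± 0.04) and the chaperone gene Psmg3 (-0.38 ± 0.04). The most positive were Psmd3 (0.36 ± 0.06), Psmd5 (0.36 ± 0.06), Psmd2 (0.31 ± 0.03) and Psmf1 (0.27 ± 0.07). Psme3 averaged 15.93 ± 0.23 in the 10 arrays over 1.4 and 16.28 ± 0.10 in the other 38, while Psmd2, the large base scaffold, averaged 17.38 ± 0.17 and 17.21 ± 0.07 (SD). Among core and cap subunits, Psmb5 and Psmd7 were lower in these 10 arrays, whereas Psmd2 and Psmd3 were higher. Other probe sets of the same gene did not always follow. Of 38 other probe sets above the median level, 10 were called in the direction of the brightest one and 6 in the opposite direction, and the second probe set of Psme3 had 0.05. Whether RNA length, probe position or the cells themselves set these coefficients was not tested.

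**Figure D4:**
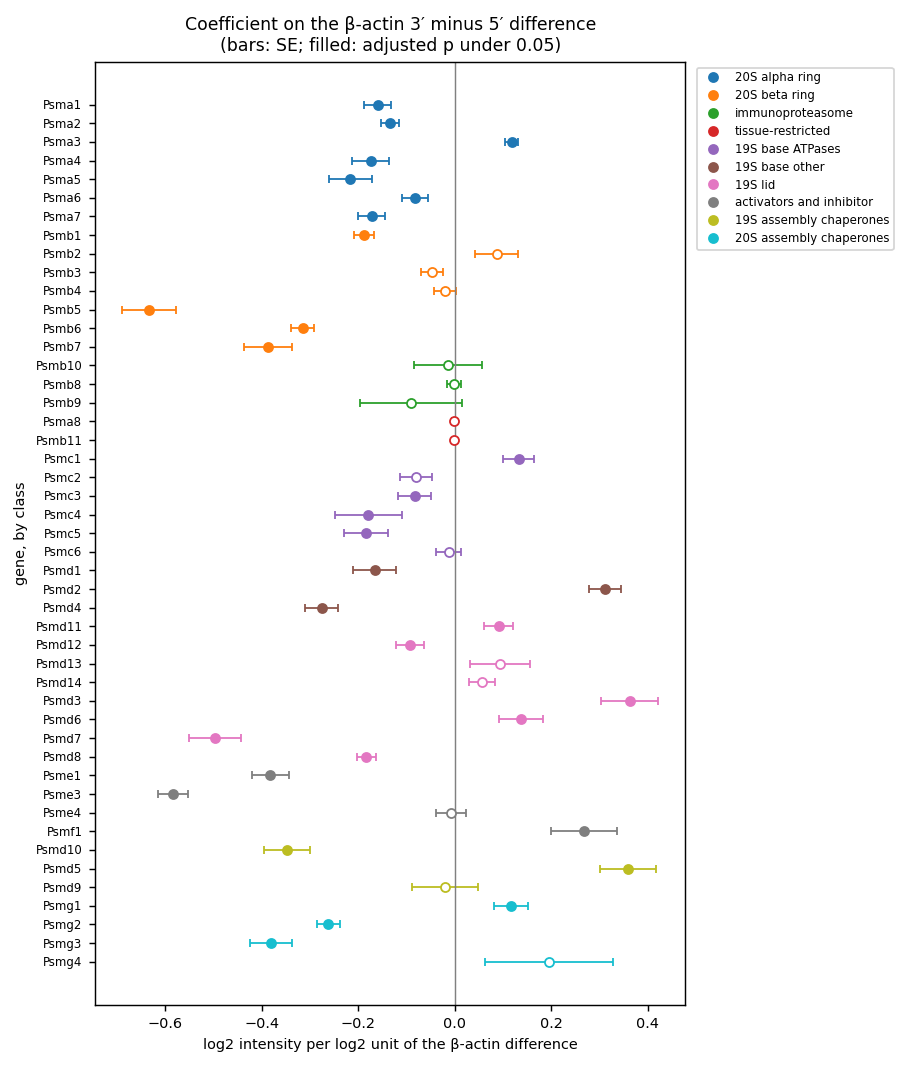
Coefficient of each of the 47 members on the β-actin 3′ minus 5′ difference (log2 intensity per log2 unit), grouped by class, with its SE as a bar and a filled point where the adjusted p was under 0.05. Filled points left of 0 number 23, led by Psmb5 and Psme3, and those right of 0 number 9, led by Psmd3 and Psmd5.

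The 31 constitutive core and cap genes did not move as 1 block. Their pairwise correlations over the 48 arrays had a median of 0.20 and ran from -0.81 (Psmb5 with Psmd2) to 0.89, with a median of 0.34 among the 14 core genes and 0.15 among the 17 cap genes. The mean z-score of the 31 genes was lowest at hour 45 (-1.72), hour 67 (-1.09) and hour 20 (-0.85), and highest at hour 24 (0.74), an array whose β-actin difference also exceeded 1.4. At hour 45, 13 members had their lowest value of the course, and 37 of the 47 had it in 1 of the 10 arrays over 1.4. Some of these arrays also held highest values, of 9 members at hour 24 and of 5 at hour 36. The matching shares over all probe sets were not computed. The correlation of this profile with the β-actin difference was -0.59. Lid gene Psmd12 (0.83), alpha ring gene Psma4 (0.82) and beta ring gene Psmb1 (0.82) followed the profile most closely, and Psmd2 (-0.39) and Psma3 (-0.21) ran against it. Psmb10 (0.10), Psmb9 (0.10) and Psme4 (0.17) had little in common with it.

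**Figure D5:**
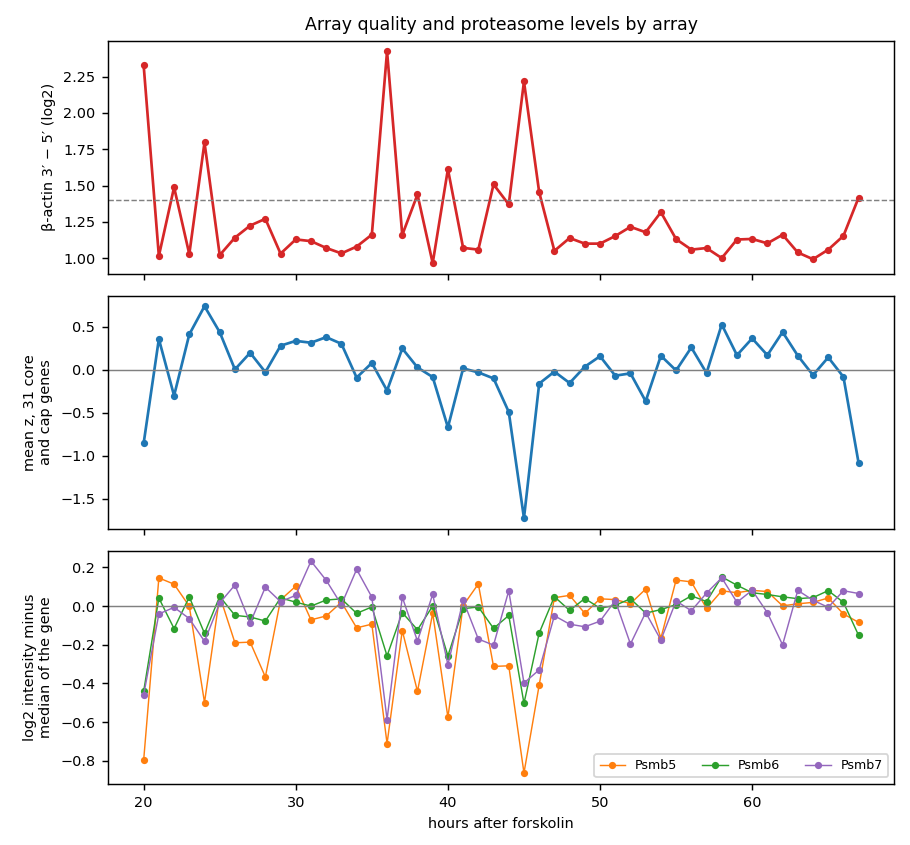
By hour after forskolin, the β-actin 3′ minus 5′ difference (top, log2, dashed line at 1.4), the mean z-score of the 31 constitutive core and cap genes (middle) and the log2 intensity of the 3 catalytic genes relative to their own medians (bottom), with 1 point per array. Psmb5 drops at hours 20, 36 and 45, where the β-actin difference is highest, and the mean z-score is lowest at hour 45 (-1.72) and hour 67 (-1.09).

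The 10 probe sets outside the member list that tracked the mean core and cap profile most closely had correlations of 0.79 to 0.85 over the 48 arrays. They belonged to Rars, Slc25a5 (with 2 probe sets), Ltv1, Sar1b, Tgs1, Mrps18b, Cops4, Eif3a and Ola1. All 10 were also called lower with the β-actin difference, as were 31.5% of probe sets above the median level. The 10 were picked from these same arrays by a profile that correlated at -0.59 with that difference. Their calls are therefore not a separate result. Their slopes per 24 h lay between -0.08 for Eif3a and 0.06 for Ltv1.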

How the data were processed

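Total RNA of 48 NIH3T3 cultures, 1 per hour, was hybridized to Affymetrix Mouse Genome 430 2.0 arrays. The deposited values were probe set intensities on a linear scale (34.8 to 761157), which the authors had corrected for background and put on a common scale before they were deposited. The study's methods name GCRMA for expression and MAS5 for detection calls, the processing notes name MAS5 alone, and software versions and any scaling constant were not given in the sources used here. Levels of different probe sets were set side by side only to choose the brightest probe set of a gene and to place members and markers against the floor and the median of all probe sets.

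Intensities were taken to log2 with no constant added and no filter. Of 45037 probe sets, 34945 had 1 gene symbol, 932 several and 9160 none, and 64 control probe sets were used for quality only. Each gene was represented by its brightest probe set. The 24 h cosine and the linear hour term were fitted together in limma 3.58.1 (R 4.3.3) with moderated tests and Benjamini-Hochberg adjustment over all probe sets at 0.05, and 12 and 8 h cosines were added in a second fit. For Fisher's G-test, the exact p was adjusted by the method of Storey (share of true nulls 0.42) and called a probe set where q was under 0.05 at a peak of 24 h. The β-actin comparison was added after the data were seen. Class counts and medians are descriptions with no test. The steps were tested on simulated data.

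The members, classes, gene lists, tests and other settings were chosen with earlier results of these data known. Genes were named by class, with values for those past a test, the catalytic and immunoproteasome subunits, the activators and the largest amplitude and slope of each class. The number of arrays limits the precision. Settings tried were quantile normalization, median centring, linear intensity, probe sets above the median, gene means, a β-actin covariate, omission of the 10 arrays over 1.4, a term for hours 52 to 55, 3 h means, a difference between windows (hours 44 to 67 minus hours 20 to 43), other periods, a detrended G-test, Benjamini-Hochberg in place of Storey q and omission of each array.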

Additional observations from a re-analysis of the deposited data

How the results depend on the processing

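At 24 h, averaging all probe sets of a gene gave 1 call in the cosine fit and 1 in the G-test, Psma7 in both, and the β-actin covariate gave 1 in the G-test, Psma3. Of the 18193 gene means, 108 were called by the cosine fit and 376 by the G-test. With the covariate the G-test called 663 of 45037 probe sets. The remaining settings listed for the 24 h cosine gave 0. With each array in turn set to the mean of the adjacent hours, the G-test called 0 to 5 members, the most for hour 36. For that hour it called 1596 of all probe sets, against 639 in the main fit. Members called higher later were 8 when tested among probe sets above the median alone, and 5 to 14 when single arrays were left out (14 without hour 67, 10 without hour 21 or 45, 8 without hour 23, 37 or 39). Of the probe sets tested, 28.5% were called higher in the first case and 13.1% to 15.2% in the second. Members called lower later stayed within 1.5 times the count of 10, at 8 to 12 with single arrays left out, 13 without the 10 arrays over 1.4 and 7 with 3 h means, the window difference or median centring. Of all probe sets 13.7% to 37.5% were called lower with single arrays left out and 29.0% without the 10 arrays, against 16.2% in the main fit. The share was 11.4% with 3 h means, 12.2% with the window difference and 13.2% with median centring. At 8 h, omitting single arrays gave 0 to 5 members. Calls of members appeared only without hour 29, 31, 41, 42, 49, 52, 62 or 63, with 10435 to 16996 of all probe sets called, Psma8 and Psmb8 at the floor in each, and Psmb11, Psma1 and Psmd6 in some. The cause was not tested. Slopes of Psma1, Psmb10, Psmd3, Psmd5, Psmd8, Psmd10, Psmd14, Psme4 and Psmg1 kept direction and call in all 58 settings each. Most of these settings left out a single array. The fit of other periods did not refit the slopes, and the window difference did not refit the 24 h cosine. With the mean of all probe sets the slope reversed for Psma3 (0.14 per 24 h, adjusted p = 0.13) and Psmc2 (0.068, adjusted p = 0.071), and the β-actin coefficient reversed for Psma3 (-0.49), Psma5 (0.083) and Psmd11 (-0.11). The β-actin counts, 23 lower and 9 higher, were 16 and 6 without the 3 arrays over 2, and 19 to 24 lower with single arrays left out. Over all probe sets 7482 were lower and 9029 higher, or 5613 and 6551 without the 3 arrays. With single arrays left out 6659 to 7594 were lower. Means of 3 h were not run for the 12 and 8 h cosines. No paired analysis was possible because there is 1 group with 1 array per hour. Depth on an array is its signal over background, and Psmb8, Psma8 and Psmb11 were at the floor.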
